A study of Rattus norvegicus with 6 samples.

Results

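In the stretch of rat chromosome 6 that corresponds to the Dlk1-Dio3 imprinted domain, the deposited table of long non-coding RNAs (lncRNAs) lists 19 transcripts at 4 loci, out of 2455 transcripts at 1646 loci with values. They were taken as all rows whose locus lies wholly between 142.8 and 143.1 Mb on the rn5 build, whatever their relation to a reference gene. The interval itself was selected on measured values, since its loci stood high in FPKM in adrenal gland and hypothalamus in earlier results from the same table. The contrast of these tissues with the other 4 is therefore a description, with no test. RNA came from male rats of the inbred BN (Brown Norway) strain aged 6 weeks, with no treatment named and 1 sample each of adrenal gland, hypothalamus, left ventricle (heart), liver, outer medulla (kidney) and cortex. Which organ the cortex came from is not labelled. The table has 2 FPKM columns per tissue (FPKM is the number of fragments scaled by transcript length and library size), and paired values below are those of column 1 and then column 2. No label tells whether paired columns stem from different animals, so differences between them may be technical and p-values measure only their spread. The hypothalamus columns carry a code that fits no label and were matched by elimination, so each value given for hypothalamus rests on that match.

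The Dlk1-Dio3 domain is a classical imprinted region of mammals. The paternal chromosome expresses the protein-coding genes Dlk1 (a transmembrane ligand-like protein that restrains differentiation), Rtl1 (derived from a retrotransposon) and Dio3 (the deiodinase that inactivates thyroid hormone), while the maternal chromosome expresses the lncRNA Meg3 and, downstream of it, long host transcripts that carry small nucleolar RNAs and a large cluster of microRNAs. The non-coding transcripts are known for expression in embryo, brain and endocrine tissue. The table carries no information on alleles, so parental origin was not measured.

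The position of the interval was checked against the microRNAs that the table names, which all lie at the same locus, XLOC_056519. No such check was possible for the other loci of the interval. Of the 19 transcripts, 10 were assigned to 1 of 4 microRNAs: rno-mir-679 (7 transcripts), Mir666, Mir667 and rno-mir-6331 (1 each). In RefSeq (build GRCr8, used here for names, order and sequences only), Mir666, Mir667 and Mir6331 are the 10th, 13th and 21st of 34 listed microRNA genes on one strand of chromosome 6 from Mir379 to Mir410, and this cluster lies between Meg3 and Rtl1 on one side and Dio3 on the other. Sequences were found for 3 of the 4 microRNAs. Their 5 mature forms are shown because these 3 microRNAs are the only named products that this order ties to the domain. No sequence was found for rno-mir-679, which is not among the 34 listed genes, so its place was not checked. Capitals mark the seed, bases 2 to 8.
rno-miR-666-5p: aGCGGGCAcggcugugagag
rno-miR-666-3p: gGCUGCAGcgugaucgccugcuc
rno-miR-667-5p: cGGUGCUGguggagcagugagcac
rno-miR-667-3p: uGACACCUgccacccagcccaa
rno-miR-6331: cUUUGGUGgcuuaguucuuugugc
The 5 seeds differ from one another, and no other rat mature microRNA in the RefSeq table has any of them. The FPKM values below are those of long transcripts that overlap the microRNAs, not of the mature forms.

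The remaining 9 transcripts have no gene symbol. TCONS_00090635 was assigned to ENSRNOG00000041744 and 2 others to ENSRNOG00000050020, neither of which could be matched to a RefSeq symbol, and 6 had no reference gene. None of the 14 gene symbols listed for the domain, Dlk1, Meg3, Rtl1, Rian, Mirg and Dio3 among them, occurs in the table, which is restricted to the authors' own choice of lncRNAs. The loci are therefore called by the table's identifiers. From lower to higher coordinates they are XLOC_056479 (chromosome 6, 142821642 to 142853124, 1 transcript), XLOC_056490 and XLOC_056509, both listed with the interval 142873330 to 142993513 (5 transcripts and 1), and XLOC_056519, which holds the microRNA-assigned transcripts (143006931 to 143062780, 12 transcripts). Just outside the chosen interval, TCONS_00093025 starts before its lower bound (142782550 to 142811908) and had 0.187 and 0.596 FPKM in hypothalamus and 0 and 0.0489 in adrenal gland. On the other side the next rows start 880 kb beyond the last member, at 143942397, and one of these, TCONS_00093045, was highest in cortex, at 1.85 and 4.01.

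Depth and tissue identity set the limits of what follows. Low FPKM values were taken to fall on steps. The size of a step gave a depth of 3870000 fragments for liver column 2, the lowest, and 32050000 for hypothalamus column 2, the highest. By column, 84.2 to 90.2% of the values used then came out as near-whole counts, off by at most 0.15. The step was read from these same values, so that share is no separate check of the depth. The implied fragments below rest on this reading. Of the marker genes listed for each tissue few have a row in the table. The transcript that overlaps Cyp11b3, a steroid hydroxylase gene, had 60.5 and 44.4 FPKM in adrenal gland, and the 8 transcripts at Sox2, Dlx6, Mir124-2 and Mir137, genes of neural cells, summed to 8.96 and 9.63 in hypothalamus. The transcript at Slc12a1, the salt transporter of the thick ascending limb, had 36.5 and 36.6 in outer medulla and 12.2 and 14.7 in cortex. At 4 liver genes the transcripts summed to 22.9 and 17.3 in liver, all of it at 3 of them, since the one at Fga was listed at 0 there. No heart marker was found, so the identity of the left ventricle was not checked.

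XLOC_056479 was the most abundant of the loci and consisted of a single transcript, TCONS_00090635, of 1511 bases. It had 47.1 and 43.0 FPKM in adrenal gland and 44.2 and 52.4 in hypothalamus. It was far lower in left ventricle (1.02 and 1.08), liver (0.274 and 1.99), outer medulla (0.167 and 0.185) and cortex (0.102 and 0.532). The 4 columns of adrenal gland and hypothalamus thus stood together and apart from the other 8. By mean FPKM, adrenal gland was 43.0-fold above left ventricle, 39.7-fold above liver, 142-fold above cortex and 256-fold above outer medulla, and hypothalamus was 46.1-, 42.6-, 152- and 274-fold above them. These folds rest on few fragments in the low tissues: the depth above implies 873 and 1035 fragments in adrenal gland and 1666 and 2303 in hypothalamus, but only 2 to 15 in any column of the others (14 and 15 in left ventricle, 2 and 11 in cortex). Ranked by summed FPKM among the 1646 loci of the table, XLOC_056479 was 12th and 9th in the adrenal columns and 5th and 4th in the hypothalamus columns, and no higher than 226th in any other column.

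XLOC_056490, which spans 120 kb and has no reference gene, summed to 30.2 and 24.8 FPKM in adrenal gland and 18.8 and 21.6 in hypothalamus. Elsewhere its sum was 0.507 and 1.34 (left ventricle), 0.165 and 1.05 (liver), 0.111 and 0.195 (outer medulla), and 0.193 and 0.143 (cortex). On the deposited scale the adrenal columns were both above the hypothalamus columns, an order that turned once tissues were put on a common median, and all 4 were far above the rest. By mean, adrenal gland was 29.8-fold above left ventricle and hypothalamus 21.9-fold.

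Nearly all of XLOC_056490 came from 2 of its 5 transcripts, which have separate start sites. TCONS_00090674 (5371 bases) had 24.5 and 19.9 FPKM in adrenal gland and 14.8 and 17.7 in hypothalamus, and TCONS_00090673 (4432 bases) had 5.34 and 4.66, and 3.50 and 3.29. The former made up 81.4 and 80.3% of the locus in adrenal gland and 79.1 and 81.8% in hypothalamus, so the balance of isoforms was nearly the same in the 4 columns. In the columns of the other tissues where the locus summed to 1 FPKM or more, it made up 85.6% (left ventricle column 2) and 73.8% (liver column 2). The other 3 transcripts of the locus, TCONS_00090677, TCONS_00090678 and TCONS_00090679, reached at most 0.334 FPKM in any column. TCONS_00090678 had 0.108 in cortex column 1, above its 0.104 in adrenal gland column 1, so for this isoform the tissues overlapped.

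**Figure D1:**
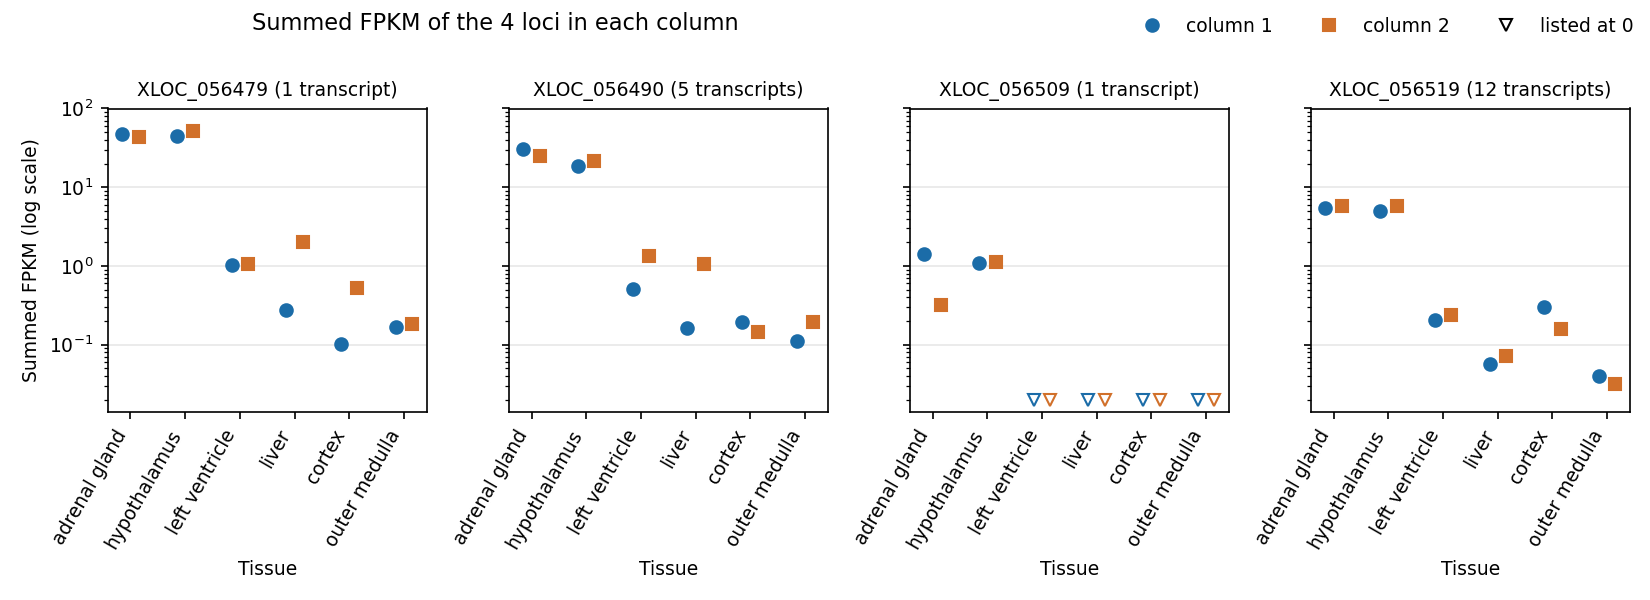
Summed FPKM of each of the 4 loci (log axis) by tissue, with column 1 as circles and column 2 as squares and open triangles for loci listed at 0. The adrenal gland and hypothalamus columns of XLOC_056479 sit between 43.0 and 52.4, above 1.99, the highest value in the other tissues.

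XLOC_056509 is a single transcript of 500 bases, TCONS_00090685, listed with the same interval as XLOC_056490. It had 1.42 and 0.316 FPKM in adrenal gland and 1.10 and 1.12 in hypothalamus. The table lists it at 0 for each of the 8 columns of the remaining tissues, but for a transcript this short a 0 says little. The implied fragments were 7 and 2 for adrenal gland and 11 and 13 for hypothalamus, and a count of 0, which allows 3 fragments, would still permit an FPKM of 0.814 in left ventricle column 1 and 0.482 in cortex column 1. Both limits lie above its value in adrenal gland column 2, and they cover counting error only. Among members whose adrenal mean reached an FPKM of 0.5, its adrenal columns were the furthest apart.

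XLOC_056519 carries the transcripts assigned to the microRNAs, over 55.8 kb. Its 12 transcripts summed to 5.47 and 5.77 FPKM in adrenal gland and 5.05 and 5.70 in hypothalamus, the closest values of the 4 loci. The sum fell off to 0.209 and 0.236 (left ventricle), 0.0572 and 0.0710 (liver), 0.0403 and 0.0314 (outer medulla), and 0.303 and 0.160 (cortex). Cortex, where the other loci were low, stood as high here as left ventricle. In fragments these low sums were 48 and 44 in cortex, 16 and 31 in left ventricle and 11 and 4 in liver.

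Within XLOC_056519 the transcripts start at 6 sites. TCONS_00090695, assigned to rno-mir-679 and 4787 bases long, stood at 0.895 and 1.30 (adrenal gland) and 1.19 and 1.24 (hypothalamus). TCONS_00090724, assigned to rno-mir-6331 (10293 bases), had 0.906 and 1.14, and 0.600 and 0.902. The transcript at Mir666, TCONS_00090713, reached 0.592 and 0.429 (adrenal gland) and 0.287 and 0.520 (hypothalamus), and that at Mir667, TCONS_00090717, had 0.426 and 0.641, and 0.632 and 0.364. Both were at most 0.0749 in every column of the other tissues, where no column exceeded 1 implied fragment for either. TCONS_00090727, assigned to ENSRNOG00000050020, had 0.613 and 0.313, and 0.755 and 0.638, while TCONS_00090726, assigned to the same gene, stayed at or below 0.183. No isoform led as in XLOC_056490: the highest by mean, TCONS_00090695, held 19.5% of the locus in adrenal gland and 22.6% in hypothalamus.

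The other 6 transcripts of XLOC_056519 share a start site, TSS71484, and are assigned to rno-mir-679. Together they had 2.04 and 1.76 FPKM in adrenal gland and 1.58 and 2.005 in hypothalamus, the largest part of the locus in each of these columns (30.5 to 37.3%). Of these, 4 are 30283 to 34024 bases long, and their values did not follow the sum. TCONS_00090701 had 0.419 and 0.865 in adrenal gland but 0.000151 and 0.00153 in hypothalamus. TCONS_00090702 had 0.695 in adrenal gland column 1 and 0.00160 in column 2, against 0.408 and 0.599 in hypothalamus. TCONS_00090700 was present in the 4 columns at 0.431 to 0.936, and TCONS_00090703 at 0.218 to 0.545. A single isoform could thus be near 0 in 1 column of a tissue and not in the other, while the sum over the start site stayed within 1.58 to 2.04. Isoforms that share most of their sequence share fragments, and the rule by which the authors' program divided them is unknown here. TCONS_00090698 and TCONS_00090699, of 14282 and 17644 bases, were at most 0.170 in any column.

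**Figure D2:**
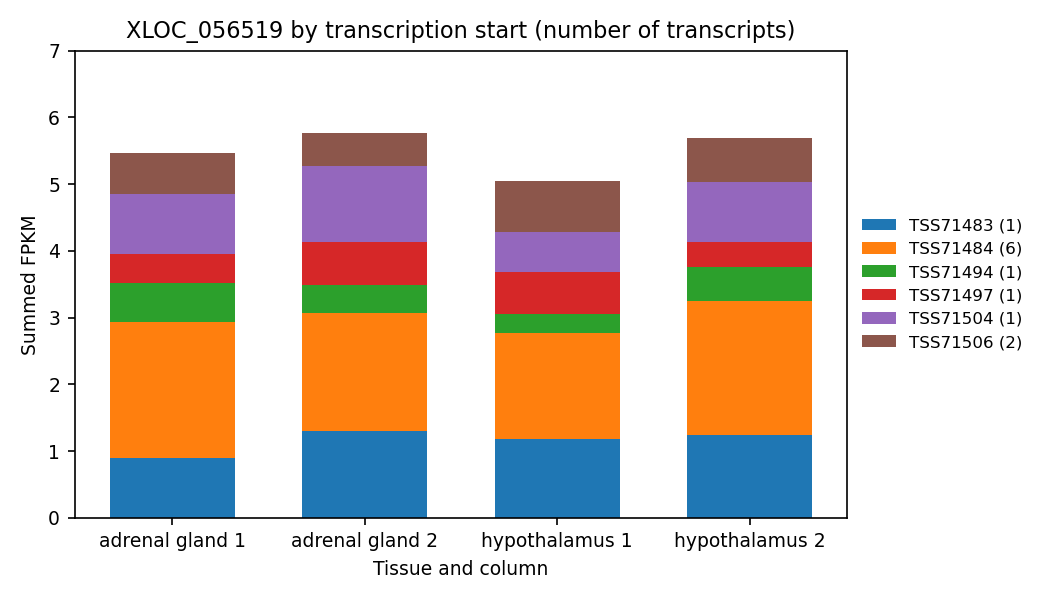
Stacked bars of summed FPKM of XLOC_056519 in the 4 adrenal gland and hypothalamus columns, coloured by transcription start site with the number of transcripts from each in brackets. The bars reach 5.05 to 5.77, and TSS71484, with 6 transcripts, is the largest part of each.

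Summed over all 4 loci, the interval had 84.2 and 73.9 FPKM in adrenal gland and 69.1 and 80.9 in hypothalamus, which was 1.55 and 1.52%, and 2.32 and 2.27%, of the FPKM of all lncRNAs in the column. For left ventricle the sum was 1.74 and 2.65, for liver 0.497 and 3.11, for cortex 0.599 and 0.835, and for outer medulla 0.319 and 0.411. In this order of tissues the columns of adrenal gland and hypothalamus overlapped, as did those of left ventricle and liver, and those of liver and cortex. Hypothalamus and left ventricle did not overlap, and neither did cortex and outer medulla. The columns of no other tissue were as far apart as those of liver, and liver column 2 is also the shallowest.

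Counted by transcript, 9 of the 19 members reached a mean FPKM of 0.5, the level taken as detection, in adrenal gland and 9 in hypothalamus, against 26.6 and 20.1% of all transcripts in the table. Left ventricle had 2, liver 1, and cortex and outer medulla 0, where 24.9, 27.9, 32.5 and 31.1% of all transcripts were detected. At a mean FPKM of at least 1, with at least a 5-fold excess over each of the other 4 tissues, stood 5 members in adrenal gland (5.25% of the table) and 5 in hypothalamus (3.71% of the table), and 4 in both (0.815%). For 11 of the 19 members the lowest of the 4 adrenal gland and hypothalamus columns was above the highest of the other 8 (4.56% of the table). As this contrast led to the choice of the interval, these counts describe the members and support nothing. The 8 members without such a gap were TCONS_00090677, TCONS_00090678 and TCONS_00090679 of XLOC_056490 and TCONS_00090698, TCONS_00090699, TCONS_00090701, TCONS_00090702 and TCONS_00090726 of XLOC_056519, all below an FPKM of 1 on the mean in both tissues.

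**Figure D3:**
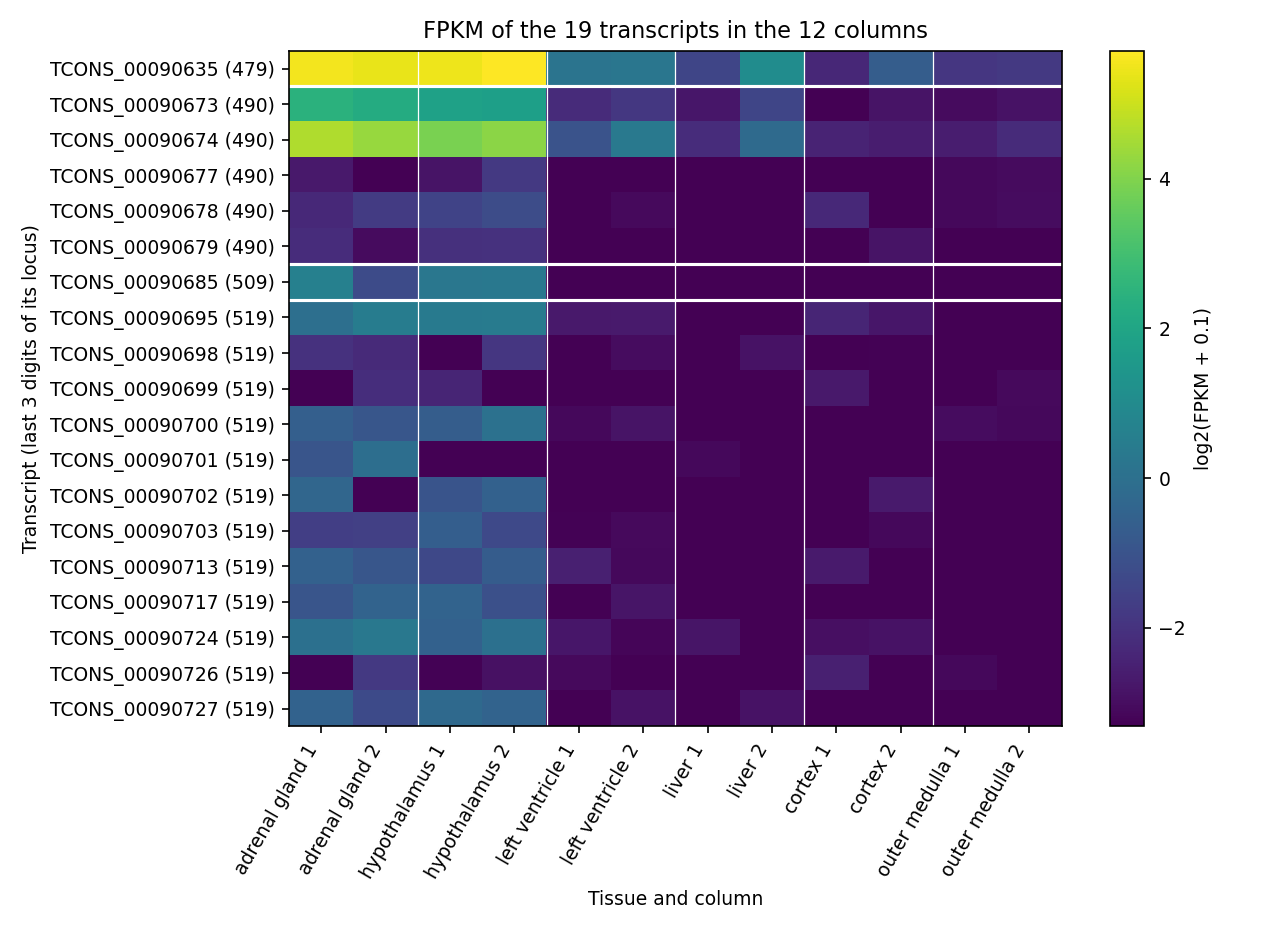
Heat map of log2(FPKM + 0.1) for the 19 transcripts (rows, with white lines between loci) in the 12 columns. The bright rows in the adrenal gland and hypothalamus columns are TCONS_00090635 and TCONS_00090674, and the rows of XLOC_056519 are fainter, with single isoforms dark in 1 column of a tissue and not in the other.

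The members also differed from the table in features that the choice did not use, mostly through the transcripts of XLOC_056519. Of the 19, 13 (68.4%) overlap an exon of a reference transcript without sharing a splice junction (class code o), a class that holds 9.21% of the table, and the other 6 have no reference gene, as 70.1% of the table do. The 13 are the 12 transcripts of XLOC_056519 and the 1 of XLOC_056479, so they are not independent. With so few loci it says little that none of the 19 lies antisense to an exon, a class that holds 7.70% of the table. Their median length was 10293 bases, against 1758 bases over the table. At 10 kb or longer were 10 of 19 members (52.6%) and 6.68% of the table, and at 30 kb or longer 4 members and 19 transcripts of the table. All 10 belong to XLOC_056519 except TCONS_00090679 of XLOC_056490, and transcripts of a locus share sequence, so these are not independent either. With 12 transcripts XLOC_056519 was among the 5 loci of the table with 12 or more, while 77.1% of loci had 1. The values of the 13 class o transcripts may include reads of the gene whose exon they overlap. Whether counting used the strand is unknown here.

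Whether the interval differed between the 2 tissues where it stood high was tested with limma on log2(FPKM + 0.1), fitted over all 12 columns with adjustment over all transcripts tested. Of 520 transcripts whose mean FPKM reached 1 in either tissue, 350 (67.3%) differed at a Benjamini-Hochberg adjusted p below 0.05, 252 of them higher in adrenal gland and 98 higher in hypothalamus. Of the members, 6 passed this minimum, and 0 of the 6 differed (limma), also at an unadjusted p below 0.05. The median log2 difference, adrenal gland minus hypothalamus, was 0.16 over these 6 and 1.37 over all 520. Summed per locus, 0 of the 4 loci differed, where 70.9% of 491 tested loci did. Because the interval was selected for standing high in both of these tissues, a small difference between them was favoured by the selection, so these counts and the median are a description and nothing is read from their distance to the table's shares.

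The intervals of these differences are wide. For TCONS_00090635 the log2 difference was -0.10 (95% interval -1.86 to 1.67, limma adjusted p = 0.92). For TCONS_00090674 it was 0.45 (-1.06 to 1.95, adjusted p = 0.57, limma) and for TCONS_00090673 0.54 (-0.57 to 1.65, adjusted p = 0.34, limma). TCONS_00090724 had 0.42 (-0.35 to 1.19), TCONS_00090695 -0.15 (-0.87 to 0.56) and TCONS_00090685 -0.61 (-1.79 to 0.58), the last with adrenal columns of 1.42 and 0.316. Differences of more than 2-fold lie within 5 of these 6 intervals, so the test does not show that the levels were equal. The spread was pooled over 6 tissues, and the liver columns, at 0.274 and 1.99 for TCONS_00090635, lay far apart. With the 4 columns of the 2 tissues alone the interval of TCONS_00090635 was -0.73 to 0.54. That fit drops all the other tissues, so the narrowing cannot be laid to liver alone.

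The direction between adrenal gland and hypothalamus depended on the scale of the libraries. After rescaling each tissue to a common median over the 1086 transcripts above 0 in all of them, every hypothalamus value rose by 0.94 on the log2 scale relative to adrenal gland. All 8 members then tested were higher in hypothalamus, and 4 of the 8 passed the threshold, where 58.6% of all 674 transcripts tested did: TCONS_00090685, TCONS_00090695, TCONS_00090700 and TCONS_00090727 (limma adjusted p = 0.037, 0.018, 0.0073 and 0.0077). Of these, TCONS_00090685, TCONS_00090700 and TCONS_00090727 reached the FPKM minimum only through their rescaled hypothalamus means (2.11, 1.40 and 1.32). Their rescaled adrenal means were 0.863, 0.495 and 0.460. The minimum thus favoured their direction, and nothing is read from these 3 calls. The median of all tested transcripts was then -0.29, with 159 called higher in adrenal gland and 236 higher in hypothalamus. Without an FPKM minimum all 19 members entered the test, and only TCONS_00090701 passed (22.9% of all 2392 transcripts did), higher in adrenal gland by 2.81 (SE 0.29, limma adjusted p = 8.1e-04). The spread behind that SE comes largely from columns at or near 0. It shares its start site with 5 transcripts of XLOC_056519 that did not pass. The spread of TCONS_00090685 likewise draws on 8 columns listed at 0, so its call after rescaling carries little weight.

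**Figure D4:**
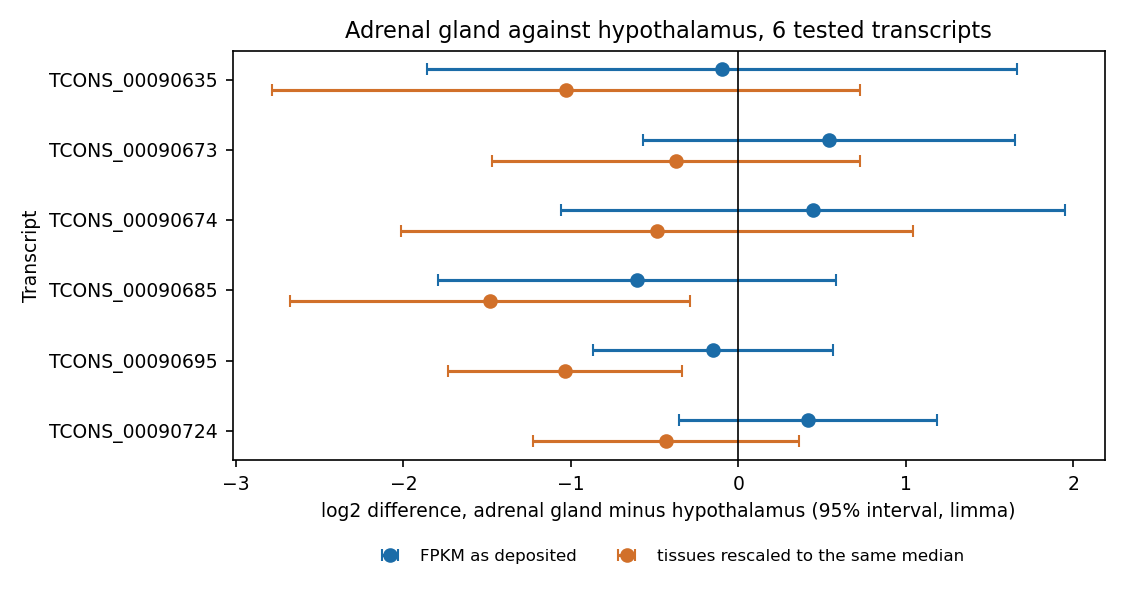
Log2 difference between adrenal gland and hypothalamus with its 95% interval (limma) for the 6 members tested, on FPKM as deposited and after rescaling to a common median. On the deposited scale every interval spans 0, and after rescaling those of TCONS_00090685 and TCONS_00090695 lie below 0.

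Ratios between loci within a column do not depend on that scale. Relative to the FPKM of XLOC_056479, XLOC_056490 stood at 0.640 and 0.577 (adrenal gland) and at 0.425 and 0.413 (hypothalamus). The adrenal values were both higher, and the ranges did not overlap. This ratio was looked at after the values were seen. With 2 columns against 2, an exact permutation test cannot give a two-sided p below 0.333, so none is given. XLOC_056519 stood at 0.116 and 0.134 of XLOC_056479 (adrenal gland) and 0.114 and 0.109 (hypothalamus). Here too the adrenal values were both higher, though 0.116 lay close to 0.114. Both ratios have XLOC_056479 as denominator, so they are not independent. For left ventricle the ratio of XLOC_056490 to XLOC_056479 was 0.497 in column 1 and 1.24 in column 2, too far apart to compare with the other tissues.

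Some RNA of hypothalamus-high transcripts was present in adrenal gland column 2, and some of adrenal-high transcripts in hypothalamus column 1. Outside the interval, the 86 transcripts that reached an FPKM of 1 in hypothalamus with a 5-fold excess over the 4 low tissues had a median of 3.35% of that level in the first adrenal column and 20.9% in the second. For the corresponding 124 adrenal transcripts the medians were 11.9% in the first hypothalamus column and 5.34% in the second. The interval's sum in adrenal gland was 112 and 98.6% of the hypothalamus mean, and in hypothalamus it was 87.4 and 102% of the adrenal mean. Shares near 100% follow from the selection of the interval for height in both tissues, so they are not compared with those medians.

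Markers of the other tissue were measured in the same columns. In adrenal gland column 1 the 8 transcripts at the neural genes Sox2, Dlx6, Mir124-2 and Mir137 summed to 8.27e-07 FPKM, against 1.49 in column 2, while the interval had 84.2 in column 1. In hypothalamus column 2 the transcript at Cyp11b3 had 1.21 FPKM, against 5.89 in column 1, while the interval had 80.9 in column 2. The loci did not all follow the sum from column to column, since XLOC_056519 had 5.47 in adrenal gland column 1 and 5.77 in column 2, and TCONS_00090695 had 0.895 and 1.30. The part of RNA from the other tissue in these levels was not tested. For the short transcript TCONS_00090685 the direction depended on the columns used: the log2 difference was -1.54 without adrenal gland column 1, and 0.32 with adrenal gland represented by column 1 and hypothalamus by column 2. Its spread in these fits came mostly from the 8 columns of other tissues, all listed at 0, and it rests on 2 to 13 implied fragments per column, so no p is given for them. In bulk tissue, fewer expressing cells and less RNA per cell cannot be told apart.

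Transcripts elsewhere in the genome with the most similar profile were ranked by Pearson's r with the interval's sum over the 12 columns, on log2(FPKM + 0.1), among 1263 candidates. TCONS_00082445 (chromosome 5, 127131826 to 127348898, no reference gene) came first with r = 0.964, at 1.96 and 1.67 FPKM in adrenal gland, 1.08 and 0.988 in hypothalamus and at most 0.146 elsewhere. TCONS_00003145, which overlaps Mir7a-2, a copy of the microRNA miR-7 gene known from neuroendocrine cells (chromosome 1, 141547592 to 141552779), had r = 0.941, with 0.783 and 0.982 (adrenal gland) and 1.88 and 2.12 (hypothalamus). TCONS_00074679 on chromosome 4 (r = 0.933) had 19.8 and 14.0, and 8.06 and 8.83. TCONS_00106367 and TCONS_00106361, listed with the same interval on chromosome 9, had r = 0.927 and 0.925. The columns of a tissue share their source and the profile has essentially 2 levels, so r carries no p. By Spearman's rho 0 of these 5 were among the top 5, and with a pseudocount of 1 there were 3.

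Of 31 other imprinted genes looked for, 2 were named in the table, and their transcripts had another profile. TCONS_00012142, assigned to Mir675, the microRNA made from the H19 RNA, had 39.2 and 100.3 FPKM in liver, with 13.3 and 16.1 for adrenal gland and 1.14 and 0.774 for hypothalamus. TCONS_00000085 at Plagl1, a gene for a zinc finger protein, reached 6.12 and 5.30 (adrenal gland) and 1.20 and 0.746 (hypothalamus), with 1.99 and 2.87 in outer medulla. A further transcript at Mir675, TCONS_00012143, stayed at or below 0.808. All were higher in adrenal gland than in hypothalamus in both columns.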

How the data were processed

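Per the labels' protocols, total RNA was isolated with TRIzol and libraries were built with a TruSeq Stranded RNA LT kit. The submitters' processing notes name bcl2fastq 2.15.0 and the rn5 build. The authors deposited FPKM values for transcripts they had selected as lncRNAs, with each transcript's length in bases as a further deposited value. No source used here gives the aligner, the program that made FPKM or its strand setting. Of 2458 rows, 3 without values were left out. Without counts, count models were not used.

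FPKM was summed per locus and start site and averaged over the 2 columns of a tissue. Adrenal gland and hypothalamus were compared with limma and a mean-variance trend on log2(FPKM + 0.1), for transcripts whose mean FPKM reached 1 in either tissue, with Benjamini-Hochberg adjustment over all of them. A log2 difference on that scale understates the change of low transcripts. On simulated data (520 transcripts) the test recovered 43.3% of changes of 2-fold, 92.5% of those of 4-fold and 100% of those of 8-fold, and 6 of 163 calls were false. All simulated columns had the same spread, taken from adrenal gland and hypothalamus, and the low columns of the other tissues were not imitated. In the real fit the SE was 0.31 for TCONS_00090695 and 0.77 for TCONS_00090635. The simulated shares therefore do not tell which changes of the members could be found. Depth was read from the steps of low values, assuming a mean fragment of 140 bases, and was used only to describe precision. RefSeq names and sequences (build GRCr8) matched 0 of the 2 Ensembl identifiers, and no coordinate was taken from them.

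The transcripts named were all rows of the interval, the nearest rows beside it, the 5 most similar transcripts elsewhere by Pearson's r, and rows at listed genes. Of those lists, 0 of 14 genes of the domain, 2 of 49 microRNA numbers of the domain (8 transcripts, all in the interval), 2 of 31 other imprinted genes, 1 of 13 adrenal, 4 of 23 neural, 4 of 6 liver, 0 of 6 heart and 1 of 5 kidney genes had a row. The list of microRNA numbers left out those of Mir666 and rno-mir-6331, which are also named in the interval. The interval, lists and tests were chosen with earlier results of these data known. Alternatives were other minimums and pseudocounts, rescaled tissues, 2 tissues alone, a block for the column number, transcript classes, and columns left out. The software was R 4.3.3 with limma 3.58.1 and Python 3.11.15 with NumPy 2.4.6, pandas 2.3.3 and matplotlib 3.10.9.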

Additional observations from a re-analysis of the deposited data

How the results depend on the processing

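Between adrenal gland and hypothalamus, where 0 of 6 members differed, 1 did with a pseudocount of 1 (TCONS_00090673, log2 difference 0.45, limma adjusted p = 0.021), 1 with no FPKM minimum (TCONS_00090701), 1 without adrenal gland column 2 and hypothalamus column 1 (TCONS_00090685, where 53.6% of all transcripts passed), and 4 after rescaling the tissues to a common median. Leaving out each column in turn gave 0 to 1 members (again TCONS_00090685, without adrenal gland column 1), where 53.0 to 71.5% of all transcripts passed. Both calls of TCONS_00090685 rest on lone columns and on a spread taken mostly from 8 columns listed at 0, so they support nothing. Same-numbered columns of the 2 tissues deviated slightly against each other (r = -0.11 across transcripts), which cannot tell whether they stem from the same animal. The labels do not tell it either, so the numbers were not taken as pairs. With a replicate block for the column number the count was 0, and 344 of 520 transcripts passed against 350, and the block changed no call of a member. With the numbers of the adrenal gland columns crossed in that block, chosen after seeing the data, 340 passed. Of all transcripts that passed after rescaling, 159 were higher in adrenal gland and 236 in hypothalamus, against 252 and 98, and without a minimum 548 of 2392 passed. With a pseudocount of 0.01 the number that passed was 252, and with 1 it was 380.

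Rescaling reversed TCONS_00090673 (to -0.37), TCONS_00090674 (-0.48) and TCONS_00090724 (-0.43). Leaving out single columns moved TCONS_00090635 between -0.22 and 0.027, TCONS_00090685 between -1.54 and 0.33 and TCONS_00090695 between -0.40 and 0.094, and TCONS_00090685 was at 0.32 without both columns named above. Nothing is read from these changes of sign, and those of TCONS_00090685 rest on lone columns, as said above for its calls.

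At a minimum of 0.1 FPKM, 15 members were detected in adrenal gland, 15 in hypothalamus, 3 in left ventricle, 3 in liver, 1 in cortex and 1 in outer medulla. At a minimum of 1 there were 5 in adrenal gland, 5 in hypothalamus, 1 in left ventricle, 1 in liver and 0 in cortex and outer medulla. Rescaling gave 13 in hypothalamus and 2 in liver and changed no other tissue's count. Leaving out a column gave 7 to 10 in adrenal gland, 10 in hypothalamus, 1 to 2 in left ventricle, 0 to 2 in liver, 0 to 1 in cortex and 0 in outer medulla. Without class o transcripts the summed FPKM was 28.4 in adrenal gland, 21.3 in hypothalamus, 0.923 in left ventricle, 0.607 in liver (1.80 with them), 0.168 in cortex and 0.153 in outer medulla, and with rescaling it was 142.5 in hypothalamus and 0.265 in outer medulla. In liver the sum was 0.497 to 3.11 when a column was left out. The leading isoform of XLOC_056519 in adrenal gland held 16.6 to 22.6% when a column was left out, and was TCONS_00090724 in column 1. By Spearman's rho 0 of the 5 most similar transcripts stayed in the top 5, and with a pseudocount of 1 there were 3. The other tests that were rerun kept their direction and call. Depth limits the low tissues, where XLOC_056479 rests on 2 to 15 implied fragments per column. The cause of these changes was not tested.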
